A study of Macaca fascicularis with 16 samples.

Results

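The basal epithelial markers are 10 genes that are known in other mammals for their expression in the basal cell layer, next to the basement membrane, of stratified and glandular epithelia: TP63, TRIM29, KRT16, SFN, DSC3, LAMA3, CDH3, ITGB4, ITGA6 and S100A2. They were taken as every probe set to which the platform annotation gives 1 of these symbols and no other, which are 30 of the 52865 probe sets and 10 of the 14133 genes named in this way. Expression was measured in mammary tissue of 16 female, postmenopausal, ovariectomized cynomolgus macaques, with 1 Affymetrix rhesus macaque array for each animal and 4 animals in each of 4 groups. The tibolone group received 0.2 mg/kg of tibolone, a synthetic steroid with estrogenic, progestogenic and androgenic activity, and its arrays are titled OD14-HIGH. The CEE+MPA group received 0.042 mg/kg of conjugated equine estrogens (CEE) with 0.167 mg/kg of the progestin medroxyprogesterone acetate (MPA). The CEE group received the same dose of CEE alone, and the control group received no treatment. Values are linear signals on a scale where the trimmed mean of each array is about 250. Tests were made with limma on log2(signal + 16), and a gene was called at an adjusted p under 0.05. The p-values measure the spread between animals.

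The mammary duct has an inner layer of luminal cells, which make milk, and an outer basal layer of contractile myoepithelial cells that rests on the basement membrane and also holds progenitor cells. TP63 encodes p63, the transcription factor that specifies basal epithelium in mice and humans. Basal cells are fixed to the basement membrane by hemidesmosomes, built on the integrin ITGA6/ITGB4, which binds laminins that contain the LAMA3 chain, and they are joined to each other by desmosomes and by P-cadherin.

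All 10 genes were measurable, and each had at least 1 probe set above a signal of 60.2, the median of the table, on 4 or more arrays. Of the 30 probe sets 21 passed this filter and were tested. The 9 that did not were 5 of 6 for TP63 (signals of 1.39 to 51.2), 1 of 2 for DSC3 (4.38 to 13.2) and 3 of 4 for LAMA3 (2.82 to 63.99). Where a gene had several tested probe sets, the one with the highest mean level represents it. The label could be checked only in part, because the annotation gives no probe set to 6 other basal keratins (KRT5, KRT14, KRT15, KRT17, KRT6A and KRT6B). Some related epithelial genes had a probe set that did not pass the filter. They were the junction genes DSG3 (highest signal 39.0), PKP1 (30.3) and CDH1 (57.5) and the basal regulator BNC1 (13.5). Skin also contains basal keratinocytes, and of 12 genes of its outer layers KRT2, IVL, DSG1, DSC1, KRTDAP, SBSN and CASP14 did not pass the filter. Of that list 3 genes were tested. KRT1 and CDSN reached at most 77.6 and 98.0, but KRT10, the keratin of differentiating epidermal cells, averaged 1492 ± 311 with tibolone, 1258 ± 130 with CEE+MPA, 1385 ± 58.8 with CEE and 1315 ± 188 in controls (SD, n = 4 each). The share of skin in these samples was not tested. In CEE+MPA against control 0 of the 3 passed the test. Mammary tissue holds many cell types, and fewer basal cells and less RNA in each basal cell cannot be told apart in these values.

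The share of probe sets above the filter lay between 48.6% and 51.8% on the 16 arrays. By the bacterial spike-in transcripts dap and thr the arrays were divided at the widest gap into 2 sets, which no label names. The low set held 6 arrays, namely CEE+MPA replicates 1 and 4, CEE replicates 1 and 2 and control replicates 3 and 4, on which dap had a log2 signal of 7.13 to 7.44. The high set held the other 10, on which it was 7.70 to 8.52, and all 4 tibolone arrays were in it. Within that set dap was 7.70 to 7.91 on the tibolone arrays and 7.98 to 8.52 on the rest. Tibolone and spike-in level therefore cannot be told apart, even within the high set. Skeletal muscle genes were high on 4 arrays, with a centred list mean above 1 on tibolone replicates 2 and 3, CEE+MPA replicate 1 and control replicate 1.

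The response to combined estrogen and progestin was read from CEE+MPA against control. TRIM29 and KRT16 fell, each by more than 1 on the log2 scale, and the other 8 basal markers did not pass the test. Of the 10 genes 2 were called lower and 0 higher, against 4.96% of all genes called lower and 2.74% called higher (7.69% in either direction). The same 2 genes had every CEE+MPA array below every control array, against 10.5% of all genes. The log2 fold changes of the 10 genes ran from -1.60 (TRIM29) to 0.73 (ITGA6), with a median of -0.41 against 0.01 over all genes, and 7 were negative and 3 positive. At an unadjusted p under 0.05 there were 5 of the 10, against 28.3% of all genes. Of the 21 tested probe sets of the markers 4 were called lower, against 4.38% of all probe sets. These 4 belong to the same 2 genes and are not independent. Within the high spike-in set TRIM29 and ITGA6 were called, 2 of 10 against 5.72% of all genes in either direction, and within the low set 0 of 10 were called and 0 of all genes.

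**Figure D1:**
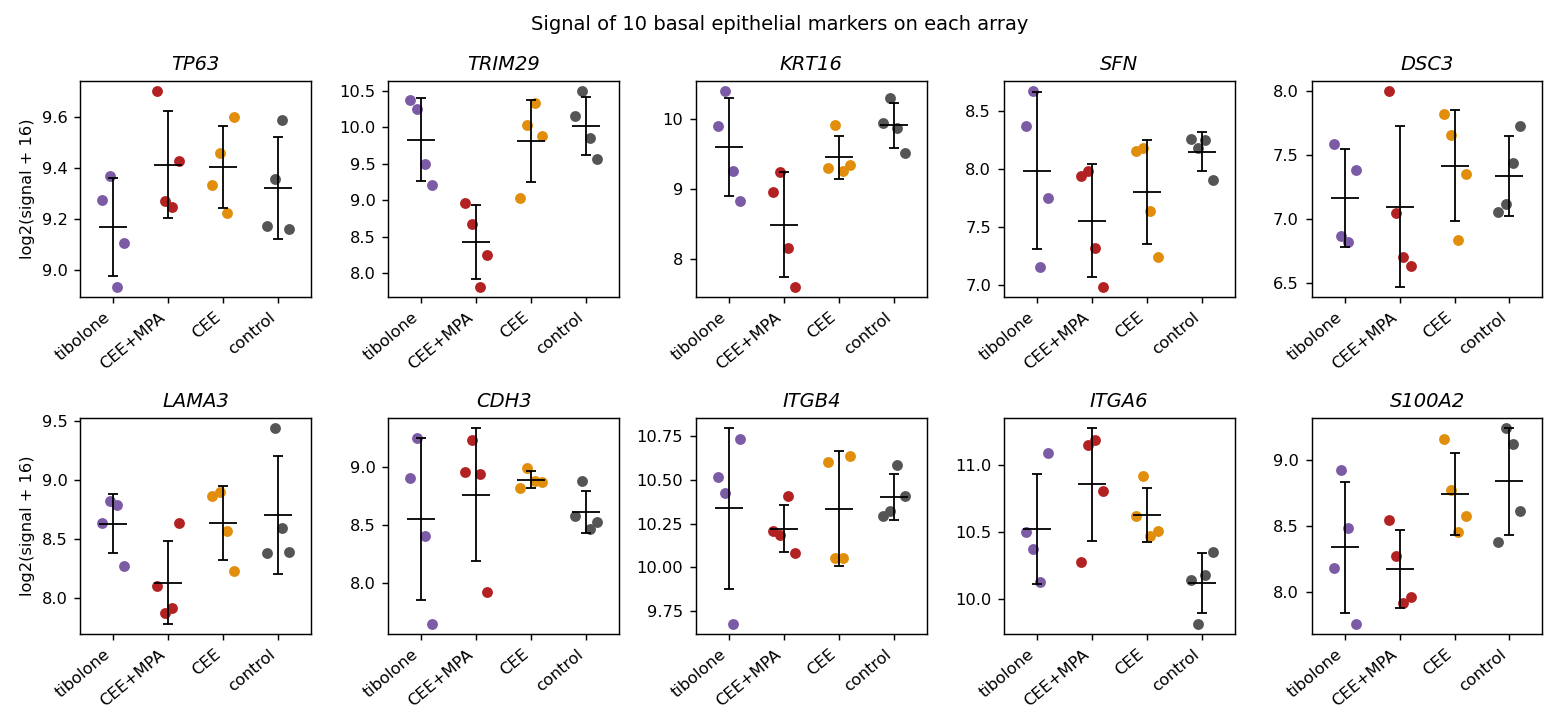
Signal of each basal marker on each array, as log2(signal + 16) of the representative probe set on the vertical axis, which does not start at 0. Points are arrays, horizontal bars are group means and error bars are the SD (n = 4). TRIM29 and KRT16 show all CEE+MPA arrays below all control arrays, while the groups of TP63 and ITGB4 overlap.

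TRIM29 encodes a tripartite motif protein found in basal cells that is known for a role in the response to DNA damage. Its signals were 1314, 1198, 703 and 575 with tibolone, 483, 393, 207 and 289 with CEE+MPA, 504, 1027, 1274 and 927 with CEE, and 1124, 1434, 914 and 742 in controls. Every CEE+MPA array lay below every array of the other 3 groups, which overlapped with each other. The mean was 343 ± 120 with CEE+MPA and 1053 ± 298 in controls (SD, n = 4 each). The fold change on the log2 scale was -1.60 ± 0.33 (SE; limma, adjusted p = 0.0143). A second TRIM29 probe set had signals of 123, 137, 125 and 132 with tibolone, 82.7, 43.2, 49.0 and 48.1 with CEE+MPA, 62.6, 212, 150.2 and 138 with CEE, and 159, 169, 99.3 and 135 in controls. Only CEE replicate 1 of the other groups lay within the CEE+MPA range. With CEE+MPA against control it also fell without overlap, with a log2 change of -1.13 ± 0.26 (limma, adjusted p = 0.0221). Within the spike-in sets the change was -1.11 in the low set (limma, adjusted p = 0.480) and -2.09 in the high set (adjusted p = 0.0301), with 2 arrays against 2 in each. The difference between the sets did not pass the test (adjusted p = 0.852). The call was lost without control replicate 2 (adjusted p = 0.0615) and without CEE+MPA replicate 3 (adjusted p = 0.0504).

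KRT16 encodes a type I keratin that is induced in activated and proliferating keratinocytes. Its signals were 943, 1335, 598 and 438 with tibolone, 480.3, 588, 269 and 178 with CEE+MPA, 615, 946, 596 and 636 with CEE, and 967, 1246, 921 and 716 in controls. All CEE+MPA arrays were below all CEE and all control arrays, and tibolone replicate 4 lay within the CEE+MPA range. The mean was 379 ± 189 with CEE+MPA and 963 ± 218 in controls (SD, n = 4 each), and the change on the log2 scale was -1.42 ± 0.36 (limma, adjusted p = 0.0308). A second KRT16 probe set fell with no overlap of these groups, with a log2 change of -1.38 ± 0.33 (limma, adjusted p = 0.0267). The names of both begin with MmugDNA.21083.1, so they may read the same target and are not independent evidence. The probe set MmugDNA.28419.1.S1_at did not pass (-1.56 ± 0.64, adjusted p = 0.154) although its groups did not overlap, and the last, dim on all arrays, had 0.15 ± 0.20. KRT14, KRT16 and KRT17 are closely similar in sequence and the probe sequences were not checked, so some of this signal may come from KRT14 or KRT17. The change was -1.42 in the low and -1.43 in the high spike-in set, neither of which passed alone (adjusted p = 0.438 and 0.126). The KRT16 call was also lost without control replicate 1, 2 or 3 and without CEE+MPA replicate 3 or 4, where the adjusted p lay between 0.0564 and 0.106. Without the 4 arrays with high skeletal muscle signal it was 0.0548.

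**Figure D2:**
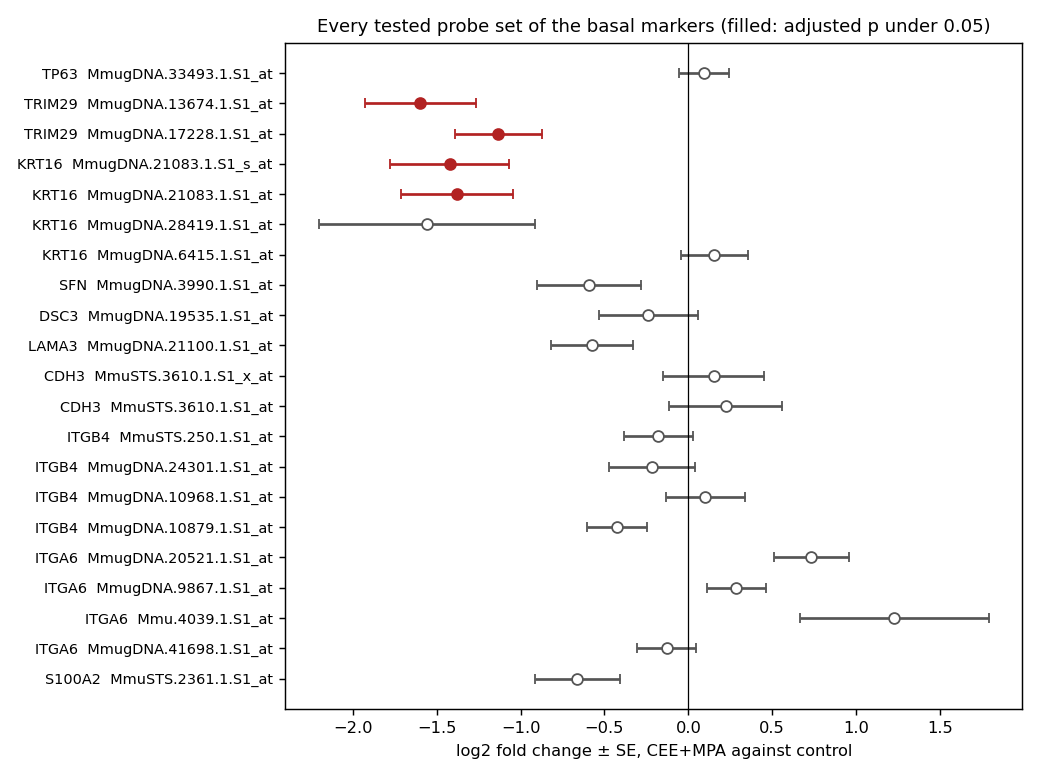
Log2 fold change with its standard error for CEE+MPA against control, on the horizontal axis, for each of the 21 tested probe sets, named by gene and probe set. Filled points had an adjusted p under 0.05, and these were both probe sets of TRIM29 and 2 of the 4 of KRT16.

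ITGA6 and ITGB4 are the chains of the hemidesmosomal integrin, and neither passed the test in CEE+MPA against control. ITGA6 signals were 1431, 1312, 1105 and 2163 with tibolone, 1226, 2259.6, 2316 and 1779.6 with CEE+MPA, 1558, 1918, 1407 and 1441 with CEE, and 1118, 886, 1147 and 1291 in controls. Of the CEE+MPA arrays 3 were above every control array, and CEE+MPA replicate 1 was within the control range. The log2 fold change was 0.73 ± 0.22 (limma, adjusted p = 0.0603), just outside the threshold. In the high spike-in set it was 1.19 (adjusted p = 0.0359), and in the low set 0.28 (adjusted p = 0.788). The difference between the sets had an unadjusted p of 0.0386 in limma and an adjusted p of 0.832. Other ITGA6 probe sets gave 0.29, 1.23 and -0.13, none of them called, so the direction was not shared by all 4.

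ITGB4 signals were 801 to 1689 with tibolone, 1069 to 1343 with CEE+MPA, 1045 to 1577 with CEE and 1239 to 1518 in controls, and all groups overlapped. Its change with CEE+MPA was -0.18 ± 0.21 (limma, adjusted p = 0.644), with a 95% interval of -0.62 to 0.26. The other 3 ITGB4 probe sets gave -0.22, 0.10 and -0.42. The log2 difference of ITGA6 minus ITGB4 within each array was compared between groups because it removes the scaling of the array, and it was chosen with earlier results known. It was 0.64 ± 0.39 with CEE+MPA and -0.28 ± 0.21 in controls (SD, n = 4 each), a difference of 0.91 (exact two-sided permutation test, p = 0.0286, the smallest that 4 against 4 arrays allow). With tibolone it was 0.18 ± 0.26, a difference from controls of 0.46 (exact permutation p = 0.0286). Adjusted over the 6 pairs of groups both gave 0.0857 and did not pass. The adjusted value could be lower only if more pairs had reached that smallest p, so this test could hardly pass. Only the representative probe sets were used.

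LAMA3 encodes the alpha chain of laminin-332, the ligand of that integrin. Its signals were 381, 435, 424 and 293 with tibolone, 257, 218, 225 and 381 with CEE+MPA, 449.8, 460.1, 361 and 283 with CEE, and 317, 679, 369 and 319 in controls. Of the CEE+MPA arrays 3 lay below all controls, and CEE+MPA replicate 4 lay within the control range. The change with CEE+MPA was -0.57 ± 0.24 (limma, adjusted p = 0.166). It was -0.12 in the low and -1.02 in the high spike-in set, a difference with an adjusted p of 0.832 in limma. Of 10 other hemidesmosome and laminin genes 6 were tested, and 0 were called in CEE+MPA against control, although all 6 fold changes were negative (median -0.37). Among them CD151, a tetraspanin that binds laminin-binding integrins, had -0.58 ± 0.18 and PLEC, the plectin linker to keratin filaments, had -0.50 ± 0.17.

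CDH3, which encodes P-cadherin, and DSC3, a desmosomal cadherin, did not pass the test. CDH3 signals were 185 to 593 with tibolone, 227 to 587 with CEE+MPA, 436 to 494 with CEE and 339 to 455 in controls. DSC3 signals were 97.0 to 177 with tibolone, 83.2 to 241 with CEE+MPA, 98.5 to 211 with CEE and 117 to 196 in controls. All groups overlapped for both genes. The changes with CEE+MPA were 0.15 ± 0.30 for CDH3 (95% interval -0.48 to 0.78) and -0.24 ± 0.30 for DSC3 (-0.87 to 0.39). Of 13 other desmosome and adherens junction genes 8 were tested and 0 were called, with a median of 0.12. DSP, the desmoplakin gene, had -0.43 ± 0.20 and DSC2, the most widely expressed desmocollin, had 0.36 ± 0.23.

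TP63 signals were 602, 645, 472 and 534 with tibolone, 817, 601, 592 and 673 with CEE+MPA, 628, 687, 582 and 760.2 with CEE, and 561, 639.6, 754 and 556 in controls. All 4 groups overlapped. The change with CEE+MPA was 0.09 ± 0.15 (limma, adjusted p = 0.760), with a 95% interval of -0.23 to 0.41, the narrowest interval among the 10 genes. Of 12 other regulators of basal epithelium 9 were tested and 0 were called (median 0.20). NGFR, a neurotrophin receptor of basal and myoepithelial cells, had -0.95 ± 0.32 (adjusted p = 0.0812), and TFAP2A, an AP-2 transcription factor, had 0.42 ± 0.16 (adjusted p = 0.130).

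SFN encodes 14-3-3 sigma, an epithelial protein that restrains the cell cycle, and S100A2 a calcium-binding protein of basal keratinocytes. SFN signals were 126 to 392 with tibolone, 110.4 to 237 with CEE+MPA, 136 to 273 with CEE and 223 to 291 in controls. The SFN change with CEE+MPA was -0.59 ± 0.31 (limma, adjusted p = 0.259). S100A2 signals were 274, 470.1, 343 and 201 with tibolone, 358, 293, 226 and 234 with CEE+MPA, 555, 422, 334 and 365 with CEE, and 318, 587, 539 and 376 in controls. The S100A2 change with CEE+MPA was -0.66 ± 0.25 (limma, adjusted p = 0.124), with CEE+MPA replicate 1 inside the control range. Without the 4 arrays with high skeletal muscle signal it was -0.94 (adjusted p = 0.0477) and passed. Of 3 tested 14-3-3 genes 0 passed. Of 9 tested S100 relatives 4 fell, with log2 fold changes of -1.06 for S100A6, -0.83 for S100A11, -1.19 for S100A4 and -0.74 for S100A10 and adjusted p from 0.00695 to 0.0245 (limma). The median of the S100 list was -0.83. These 4 are expressed by many cell types, among them fibroblasts and macrophages.

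Marker lists of other cells were read in the same comparison. Of 6 tested contractile genes of myoepithelial cells, which smooth muscle also expresses, 5 fell with CEE+MPA, with a list median of -1.18. They were MYH11, smooth muscle myosin (-1.92 ± 0.28), ACTG2, smooth muscle gamma actin (-2.03 ± 0.44), CNN1, calponin (-1.28 ± 0.29), TAGLN, transgelin (-1.07 ± 0.24), and CALD1, caldesmon (-0.70 ± 0.14). The summed contractile signal was 14717 to 24506 with tibolone, 7588 to 13779.6 with CEE+MPA, 16476 to 18318 with CEE and 18203 to 24893 in controls, so the CEE+MPA arrays lay below all others. No probe set is annotated to ACTA2 or MYLK, the other 2 genes of that list. With the contractile mean as a covariate, added after the data were seen, TRIM29 had -0.28 with CEE+MPA (limma, adjusted p = 0.905) and KRT16 0.72 (adjusted p = 0.567). In that fit 0 of the 10 basal markers were called. Of all 28704 probe sets it called 1 higher and 0 lower, against 561 and 1258 without the covariate. Because the contractile mean also separates CEE+MPA from the other groups, the group and the covariate cannot be told apart in this model. Of 11 tested luminal genes 1 rose, KRT19 by 0.63 ± 0.17 (adjusted p = 0.0409), with 0 called lower and a list median of 0.19. The summed luminal signal was 27073 to 49598 with tibolone, 37661 to 44537 with CEE+MPA, 36837 to 42380 with CEE and 32188 to 37260.3 in controls. This sum is weighted toward bright genes, and KRT19 had the highest signal of the list (up to 24356). The luminal mean, which weights the 11 genes equally, was -0.057 ± 0.038 with CEE+MPA and 0.036 ± 0.170 in controls (SD), and these groups overlapped. Of the 11 fold changes 6 were positive and 5 negative, so a general luminal rise was not seen. With the luminal mean as a covariate TRIM29 changed by -1.47 (adjusted p = 0.00848) and KRT16 by -1.32 (adjusted p = 0.0320). Of 5 tested adipocyte genes 2 fell (RETN and CFD), of 5 fibroblast genes 1 fell (LUM), and 0 of 5 endothelial, 0 of 3 macrophage and 0 of 9 skeletal muscle genes were called. The list medians were -1.11 for adipocyte, -0.31 for fibroblast, -0.55 for endothelial, -0.74 for macrophage and -0.20 for skeletal muscle genes. All 5 endothelial and all 3 macrophage fold changes were negative, with an unadjusted p under 0.05 for 3 genes of each list. The summed endothelial signal was 5449 to 8517 with tibolone, 4132 to 5070.2 with CEE+MPA, 5032 to 6039.7 with CEE and 5711 to 7897 in controls. The summed macrophage signal was 1792 to 4639.6 with tibolone, 1597 to 2388 with CEE+MPA, 1422 to 2398 with CEE and 3002 to 3881 in controls. For both lists every CEE+MPA array lay below every control array. The part of these cells in the values of TRIM29 and KRT16 was not tested.

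**Figure D3:**
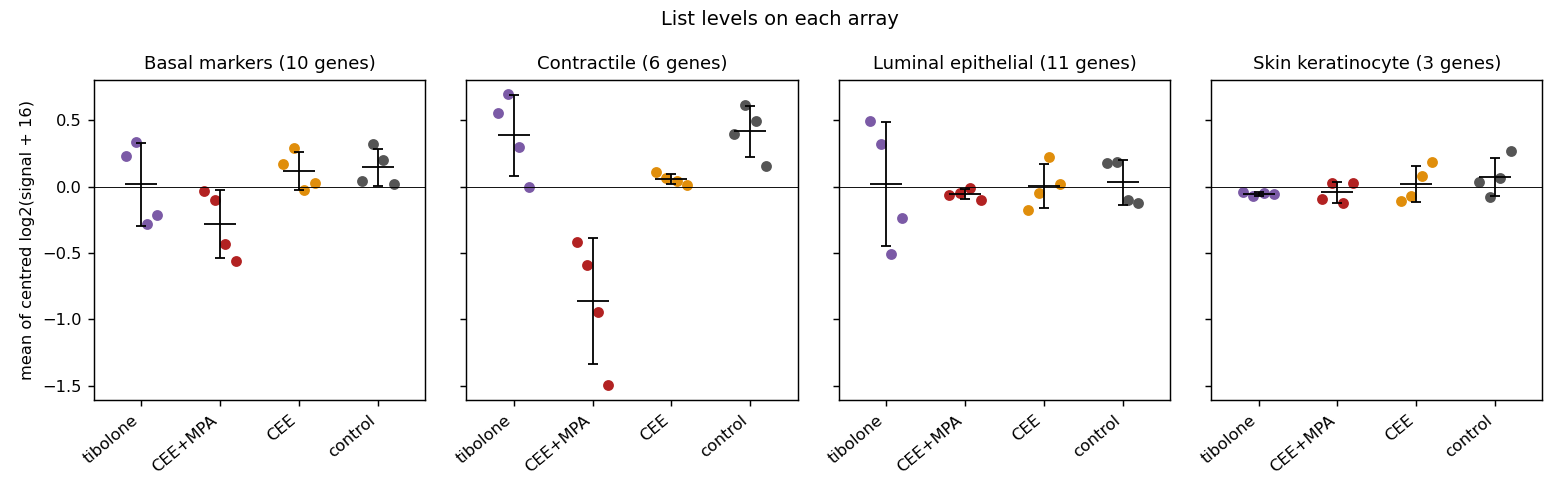
Mean of centred log2(signal + 16) on each array, on the vertical axis, for the 10 basal markers, 6 contractile genes, 11 luminal genes and 3 skin keratinocyte genes. Points are arrays, and bars are group means with the SD (n = 4). The contractile mean lay between -1.50 and -0.42 with CEE+MPA and between 0.16 and 0.62 in controls, while the luminal means overlapped.

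**Figure D4:**
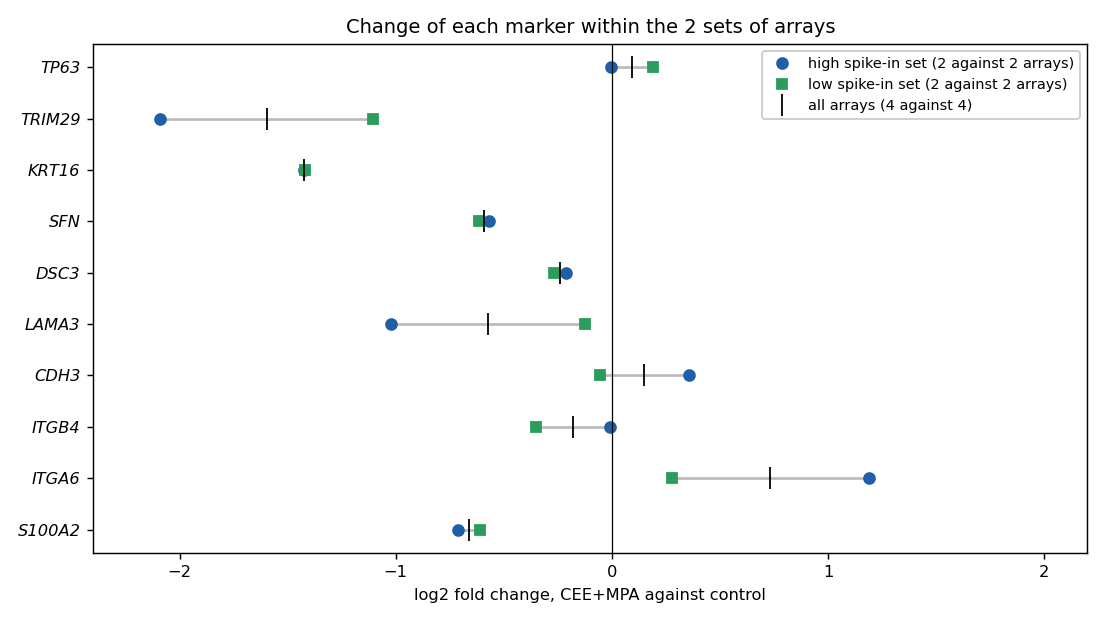
Log2 fold change of each basal marker for CEE+MPA against control, on the horizontal axis, in the high and low spike-in sets (2 against 2 arrays each) and over all arrays (4 against 4). KRT16 had nearly the same value in both sets, whereas TRIM29, LAMA3 and ITGA6 were farther from 0 in the high set.

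The response to estrogen alone was read from CEE against control. None of the 10 basal markers was called, at a background of 0.0574% of all genes, and the lowest adjusted p was 0.375. The changes ran from -0.45 for KRT16 to 0.51 for ITGA6, with a median of -0.06. ITGA6 had every CEE array above every control array, 1 of 10 genes against 5.28% of all genes. Its value was 0.51 ± 0.22 (limma, unadjusted p = 0.0381, adjusted p = 0.375). This was its representative probe set, and the other ITGA6 probe sets gave 0.14, 0.85 and 0.03 with overlapping groups. A dim ITGB4 probe set (MmugDNA.10879.1.S1_at) had every CEE array below every control array (-0.53 ± 0.18, limma, adjusted p = 0.267). At an unadjusted p under 0.05 ITGA6 was 1 of the 10 genes, against 14.2% of all genes. The 95% intervals of the 10 genes spanned -1.21 to 0.98.

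The effect of adding the progestin to the same dose of estrogen was read from CEE+MPA against CEE. None of the 10 genes was called, at a background of 0.0287%, and 3 had an unadjusted p under 0.05, against 7.58% of all genes. TRIM29 had -1.39 ± 0.33 (limma, unadjusted p = 0.000675, adjusted p = 0.268) and KRT16 -0.97 ± 0.36 (unadjusted p = 0.0152, adjusted p = 0.519). The representative probe sets of both had all CEE+MPA arrays below all CEE arrays, 2 of 10 genes against 3.18% of all genes. For KRT16 the gap was narrow, between 588 with CEE+MPA and 596 with CEE. In the second TRIM29 probe set (-1.06 ± 0.26) and all other KRT16 probe sets these groups overlapped. The dim KRT16 probe set had a positive change (0.21 ± 0.20), and the others were negative. S100A2 was the other gene with an unadjusted p under 0.05, at -0.56 ± 0.25 (adjusted p = 0.629).

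Tibolone was compared with each of the other groups. Against no treatment 0 of the 10 genes were called (background 0.00957%), and 0 had an unadjusted p under 0.05, against 4.83% of all genes. The changes ran from -0.50 for S100A2 to 0.40 for ITGA6, and the 95% intervals spanned -1.06 to 0.87. Against CEE 0 were called, where 0 of all genes were called, and 0 had an unadjusted p under 0.05 (13% of all genes), with changes of -0.40 to 0.18. Against CEE+MPA TRIM29 was higher by 1.41 ± 0.33 (limma, adjusted p = 0.0273), 1 of 10 genes where 3.98% of all genes were called higher, 3.37% lower and 7.35% in either direction. All tibolone arrays were above all CEE+MPA arrays for TRIM29, 1 of 10 genes against 7.78% of all genes. The second TRIM29 probe set was also higher with no overlap (1.05 ± 0.26, adjusted p = 0.0327). KRT16 had 1.11 ± 0.36 and did not pass (adjusted p = 0.0710). TRIM29 and KRT16 were the 2 of 10 genes with an unadjusted p under 0.05, against 28% of all genes. The TRIM29 call was lost when the fit had a block for the spike-in sets (1.27, limma, adjusted p = 0.0685), with a skeletal muscle covariate (1.34, adjusted p = 0.0517) and in a fit of only these groups (1.41, adjusted p = 0.0690). Within the high spike-in set, the only one that holds tibolone arrays, TRIM29 had 1.59 (limma, adjusted p = 0.0578). There the tibolone arrays had lower dap signals than the CEE+MPA arrays, so treatment and spike-in level cannot be told apart. The call was also lost without CEE+MPA replicate 3 or 4 and without tibolone replicate 1, 2 or 3. Without the 4 arrays with high skeletal muscle signal, where 0 of all probe sets were called, the change was 1.55 (limma, adjusted p = 0.305). Of the contractile genes 5 of 6 were called higher with tibolone than with CEE+MPA (median 1.11, against 0.01 over all genes), as were S100A6, S100A11, the luminal factor FOXA1 and 2 of 5 adipocyte genes (RETN and CFD, with 1.36 ± 0.36 for CFD). In the 4 comparisons other than CEE+MPA against control and tibolone against CEE+MPA, 0 genes of the companion lists were called. The comparisons of tibolone and of control with CEE+MPA share the CEE+MPA arrays.

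**Figure D5:**
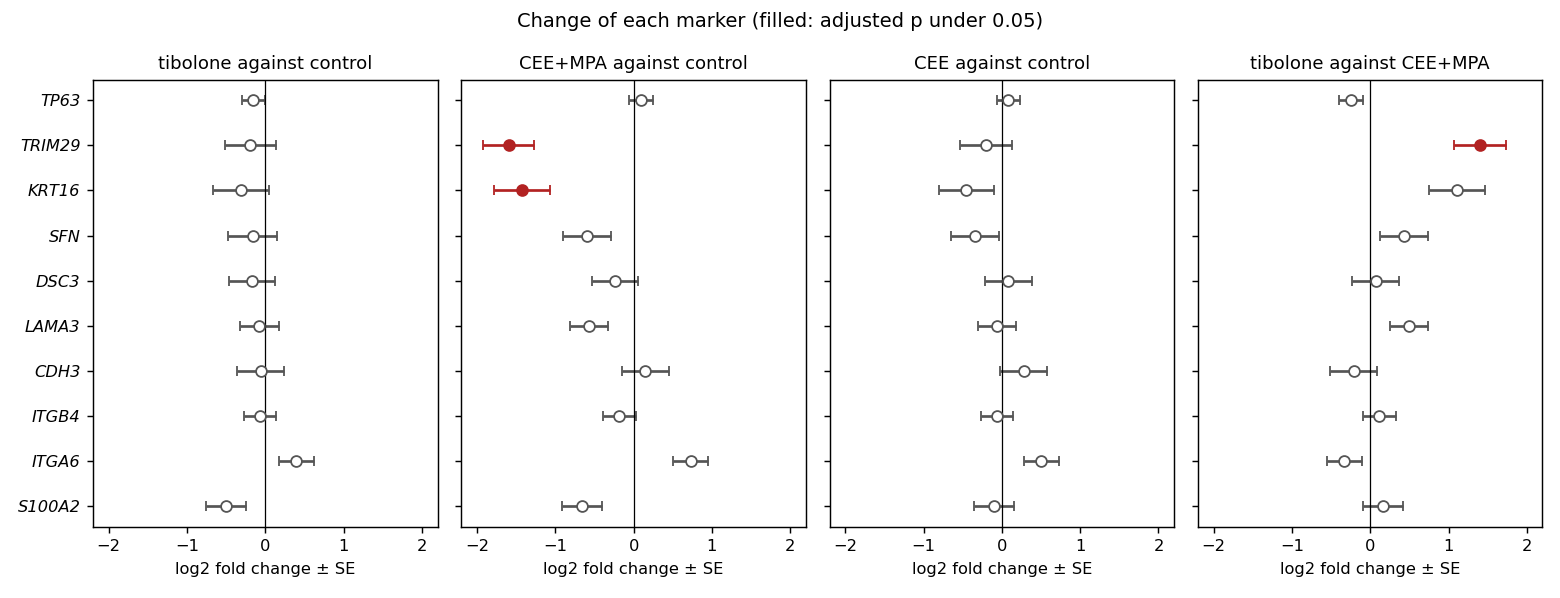
Log2 fold change with its standard error, on the horizontal axis, of each basal marker in 4 of the 6 comparisons. Filled points had an adjusted p under 0.05: TRIM29 and KRT16 in CEE+MPA against control, and TRIM29 in tibolone against CEE+MPA.

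For TRIM29 the group means ran from 343 ± 120 with CEE+MPA through 933 ± 321 with CEE and 947.5 ± 363 with tibolone to 1053 ± 298 in controls (SD, n = 4 each). Only the lowest group stood clear of its neighbour, and the others overlapped. KRT16 had the same order, with 379 ± 189 with CEE+MPA, 698 ± 166 with CEE, 828 ± 398 with tibolone and 963 ± 218 in controls, and again only CEE+MPA lay clear of its neighbour. Both orders are those of the representative probe sets. In the other KRT16 probe sets the CEE+MPA and CEE arrays overlapped. ITGA6 had the opposite ends in its representative probe set. Its means were 1895 ± 507 with CEE+MPA, 1581 ± 234 with CEE, 1503 ± 460 with tibolone and 1111 ± 168 in controls (SD, n = 4 each). All neighbours in that order overlapped. A dimmer ITGA6 probe set had the same order. Another had its lowest mean with tibolone (780 ± 177) and not in controls (810 ± 108). The last had its highest mean with CEE (265 ± 28.4) and its lowest with tibolone (220 ± 41.1). Across the 16 arrays 33 of the 45 pairs of basal markers had a positive Pearson correlation, with a median of 0.23, and 31 were positive once each group mean was taken off (median 0.22). Before that step TRIM29 and KRT16 had the highest value (0.86) and TRIM29 and ITGA6 the lowest (-0.65). With group means off KRT16 and CDH3 had the highest (0.89) and ITGA6 and S100A2 the lowest (-0.54), while TRIM29 and KRT16 had 0.69. The 16 arrays share treatment groups, spike-in sets and tissue makeup, and these values are a description.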

How the data were processed

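Total RNA of mammary tissue was extracted with Tri-reagent and RNeasy columns and labelled with biotin, per the labels' protocols. The deposited values are linear probe set intensity, which the authors had brought to a common trimmed mean of about 250 (2% trimmed at each end, as found from the values). Per the submitters' processing notes the software was GCOS and Affymetrix Expression Console. Which algorithm and version were run is not given in the sources used here.

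From these values log2(signal + 16) was computed, which understates changes of dim genes. The 99 Affymetrix control probe sets were left out, and 28704 probe sets of 10452 genes with a signal above 60.2 on at least 4 of 16 arrays were tested. The annotation gives 24969 probe sets 1 symbol, 361 several and 27535 none, and its symbols can be old. All 10 markers were found in the cynomolgus RefSeq table. Probes were designed for another macaque species.

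A limma model of 4 group means over 16 arrays gave 6 comparisons, adjusted by Benjamini and Hochberg within each over all tested probe sets. Errors of fold changes are SE and those of signals SD. Values within a spike-in set came from 1 model in which every combination of group and set had its own mean, so their error is pooled over all arrays. The number of arrays limits the precision. Replicates were numbered in the order of the arrays.

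The text names all probe sets of the markers, up to 4 genes for each companion list by smallest p (CNN1 was added to the contractile genes after its values were seen), and 8 genes most like the markers by each of 2 measures. The markers and the 14 companion lists were chosen with earlier results of these data known. Alternatives were other normalizations, filters, offsets, priors, array weights, covariates, a block for the spike-in sets, and each array left out in turn. On simulated data 92 to 95 of 100 probe sets changed by a log2 size of 2 were recovered, and 59 to 66 of 100 at a size of 1, among 28704 probe sets. There were 1 to 14 false calls. The simulated noise was normal and independent between probe sets and arrays, without spike-in sets or tissue makeup. These shares therefore do not give the recovery on the real arrays. R 4.3.3, limma 3.58.1, Python 3.11.15, scipy 1.17.1 and matplotlib 3.10.9 were used.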

Additional observations from a re-analysis of the deposited data

Results flagged for a closer look

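In 84 groups of 4 arrays, 1 for each tested marker probe set and treatment, 7 held an array whose gap to the nearest of the others was larger, relative to the group's range, than Dixon's critical value for 4 values at 95%. For normally distributed values chance alone sets apart about 1 group in 20. That rate need not hold here, because the signals were linear and many groups share a gene and its arrays. A TRIM29 probe set (MmugDNA.17228.1.S1_at) stood at 82.7 on CEE+MPA replicate 1, against 43.2 to 49.0 on the other CEE+MPA arrays. The main KRT16 probe set stood at 946 on CEE replicate 2, against 596 to 636, and the dim one (MmugDNA.6415.1.S1_at) at 33.7 on tibolone replicate 4, against 65.2 to 67.3. LAMA3 was 679 on control replicate 2, against 317 to 369 on the other controls. An ITGB4 probe set (MmugDNA.24301.1.S1_at) was 575 on control replicate 3, against 295 to 332. A dimmer ITGA6 probe set was 1437 on CEE+MPA replicate 3, against 254 to 343, and 878 on tibolone replicate 1, against 169 to 234, and it was not the one used to represent the gene.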

How the results depend on the processing

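No paired analysis was possible because no animal was in more than 1 group, and replicate numbers followed only the order of the arrays. The count of basal markers called stayed at 0 under all alternatives run for CEE against control, tibolone against control, CEE+MPA against CEE and tibolone against CEE. For CEE+MPA against control the count of 2 became 1 (TRIM29) with no filter (KRT16 adjusted p = 0.0518), and 0 within the low spike-in set and with the contractile covariate. With 1 array left out it ranged from 0 to 3, with 0 when control replicate 2 or CEE+MPA replicate 3 was out and 3 (ITGA6 added) without CEE+MPA replicate 1 or tibolone replicate 3 or 4. Without the 4 arrays with high skeletal muscle signal 3 markers were called, but these were TRIM29, ITGA6 and S100A2. Of all 28704 probe sets the main fit called 561 higher and 1258 lower. Those numbers were 40 and 308 without control replicate 2, and 108 and 444 without CEE+MPA replicate 3. They were 252 and 950 without CEE+MPA replicate 1, and 747 and 1497 without tibolone replicate 3. In the low spike-in set they were 0 and 0, and with the contractile covariate 1 and 0. ITGA6 passed in 10 of 35 alternatives of this comparison. Among them were median centring (0.80, limma, adjusted p = 0.0460) and array weights (0.81, adjusted p = 0.0195), which also raised the count to 3. For tibolone against CEE+MPA the count of 1 became 2 with array weights and at a threshold of 0.10, and 0 with the skeletal muscle covariate, a block for the spike-in sets, the high spike-in set alone, only the 2 groups compared, the contractile covariate, and the 4 arrays with high skeletal muscle signal left out. With 1 array left out it ranged from 0 to 2. Of all probe sets the main fit of this comparison called 1086 higher and 734 lower, and array weights 1332 and 836. The settings with a marker count of 0 called, in the order given, 499 and 234, 519 and 216, 425 and 139, 163 and 52, 0 and 1, and 0 and 0.

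Direction reversed with the contractile covariate in CEE+MPA against control for KRT16 (0.72), SFN (0.87), DSC3 (0.40) and S100A2 (0.42), in CEE+MPA against CEE for KRT16 (0.58) and S100A2 (0.21), and in tibolone against CEE+MPA for KRT16 (-0.98). The contractile mean separates CEE+MPA from the other groups, so group and covariate overlap in that model. Values near 0 changed sign for TP63 in CEE+MPA against control in the high spike-in set (-0.0062), without CEE+MPA replicate 1 (-0.0049) and without the skeletal muscle arrays (-0.054), and for CDH3 in the low set (-0.057) and without CEE+MPA replicate 2 (-0.0074). With 1 array left out TP63 ranged from -0.0049 to 0.18 and CDH3 from -0.0074 to 0.43. The cause was not tested. The contractile covariate and the omission of the skeletal muscle arrays were chosen after seeing the data.

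Median centring moved the split of all called probe sets in CEE+MPA against control to 967 higher and 959 lower, against 561 and 1258. In tibolone against CEE+MPA it gave 681 higher and 1094 lower, against 1086 and 734. TRIM29 and KRT16 kept their direction under it. DSC3 had no value under the 75th percentile filter, and tibolone none in the low spike-in set. Dim probe sets, such as 5 of the 6 of TP63, give no test here.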

Other observations

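The genes most like the basal markers were ranked by the Pearson correlation of each gene with the mean scaled level of the 10 markers over the 16 arrays. KRT3, a type II keratin known from human corneal epithelium, was first (r = 0.85), followed by BDH2 (0.83), TIMP1, a metalloproteinase inhibitor (0.83), SPECC1 (0.79), NAP1L3, TNFRSF12A, TTC28 and LOC715623 (each 0.78). After the mean of each group was taken off, PFDN1 (0.84) and KRT3 (0.84) led, and TIMP1, TNFRSF12A and LOC715623 were again among the 8, joined by LOC698421, PIERCE1 and the contractile gene CALD1 (0.79). These are the highest of all tested genes other than the 10 markers and share the arrays' tissue makeup, so they are given as a description.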
